A study of Homo sapiens with 4 samples.

Results

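Fibronectin, tenascin, the fibrillins and the matricellular proteins are secreted glycoproteins that surround cells. The genes examined were FN1, TNC, FBN1, FBN2, THBS1, THBS2, SPARC, FBLN1, EFEMP1 and POSTN, taken by symbol. All 10 symbols were present among the 25559 gene symbols of each count table. HGC27 is an established human gastric cancer cell line, from a lymph node metastasis of a poorly differentiated carcinoma, and it was profiled by poly(A) RNA-seq in 2 libraries of wildtype cells, called control here, and 2 libraries of RUNX3 knock-out (RUNX3 KO) cells. RUNX3 KO cells had received Cas9 and 1 guide to RUNX3 from a lentivirus, were selected with puromycin and passed through single-cell cloning. The number of clones behind the libraries is not given in the sources used here, nor is any vector in the control cells or whether replicates were separate cultures, so p-values measure the spread between these libraries, which may be technical. Both groups were grown with serum, in MEM per the labels and in RPMI1640 per the study's methods. The loss of RUNX3 and a difference between clones cannot be told apart in this design.

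Fibronectin is deposited as fibrils that cells hold through integrins, and fibrillins form the microfibrils on which elastic fibres are built and TGF-beta is stored. Matricellular proteins are matrix components that act on cell adhesion and signalling more than on the strength of the tissue. Thrombospondin 1, tenascin-C, SPARC and periostin are textbook members of that class, and in tumours they are mostly known as products of stromal fibroblasts.

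Each library held between 11731401 and 12110876 reads on genes, and levels are given as CPM, the count scaled to a common library size with edgeR's TMM method. Libraries of the same condition differed by close to sampling noise alone, with a chi-square per gene of 1.22 over 13692 genes for the control pair and 1.18 over 13510 genes for the RUNX3 KO pair, against 17.1 and 17.3 between conditions. RUNX3 itself had 351 and 308 counts in control cells and 225 and 185 in RUNX3 KO cells, or -0.70 on the log2 scale (SE 0.0961). The transcript was thus lower in both RUNX3 KO libraries and still counted in each, and without RUNX3 KO replicate 2 its fall did not pass the test (-0.55). A cut within an exon need not remove the transcript, so these counts do not measure the loss of the protein, which the study's methods say was checked after cloning and which was not analysed here. Of the epithelial markers, EPCAM and KRT19 had at most 1 count in any library, whereas all 5 fibroblast markers (DCN, LUM, PDGFRA, PDGFRB and THY1) were expressed, at a sum of 446 to 449 CPM in control and 325 to 330 CPM in RUNX3 KO cells. All 5 were lower in RUNX3 KO cells (edgeR quasi-likelihood, adjusted p under 0.05), from -0.28 for THY1 to -2.33 for PDGFRA on the log2 scale. Of all tested genes, 24.4% were lower and 24.5% higher at that threshold. The 5 epithelial markers summed to 2.80 to 2.96 CPM in control and 8.81 to 10.6 CPM in RUNX3 KO cells, with CDH1 and KRT8 higher. Leukocyte markers summed to at most 1.10 CPM and endothelial markers to at most 0.339 CPM in any library, with PECAM1, CDH5 and CD3E at 0 counts throughout. The part of these markers in the results below was not tested, and in bulk RNA fewer cells of a type and less RNA per cell cannot be told apart.

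The 10 genes split by direction in RUNX3 KO cells. TNC, FN1 and THBS1 were lower by at least 2-fold, FBLN1, SPARC and POSTN were lower by less than 2-fold, and FBN1 and FBN2 were higher by at least 2-fold. THBS2 and EFEMP1 were too rare to be tested. An adjusted p under 0.05 by edgeR's quasi-likelihood test, adjusted by the Benjamini-Hochberg method over all 12967 tested genes, was thus reached by 6 of the 10 genes downwards and 2 upwards, against 24.4% and 24.5% of all tested genes. At a fold change of at least 2 there were 3 of the 10 downwards and 2 upwards, against 3.95% and 2.11%. The filter on low counts was passed by 8 of the 10 genes, TNC through its control libraries only. In each of the 8, no RUNX3 KO library overlapped a control library, as was the case for 36.4% of all tested genes downwards and 36.3% upwards.

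**Figure D1:**
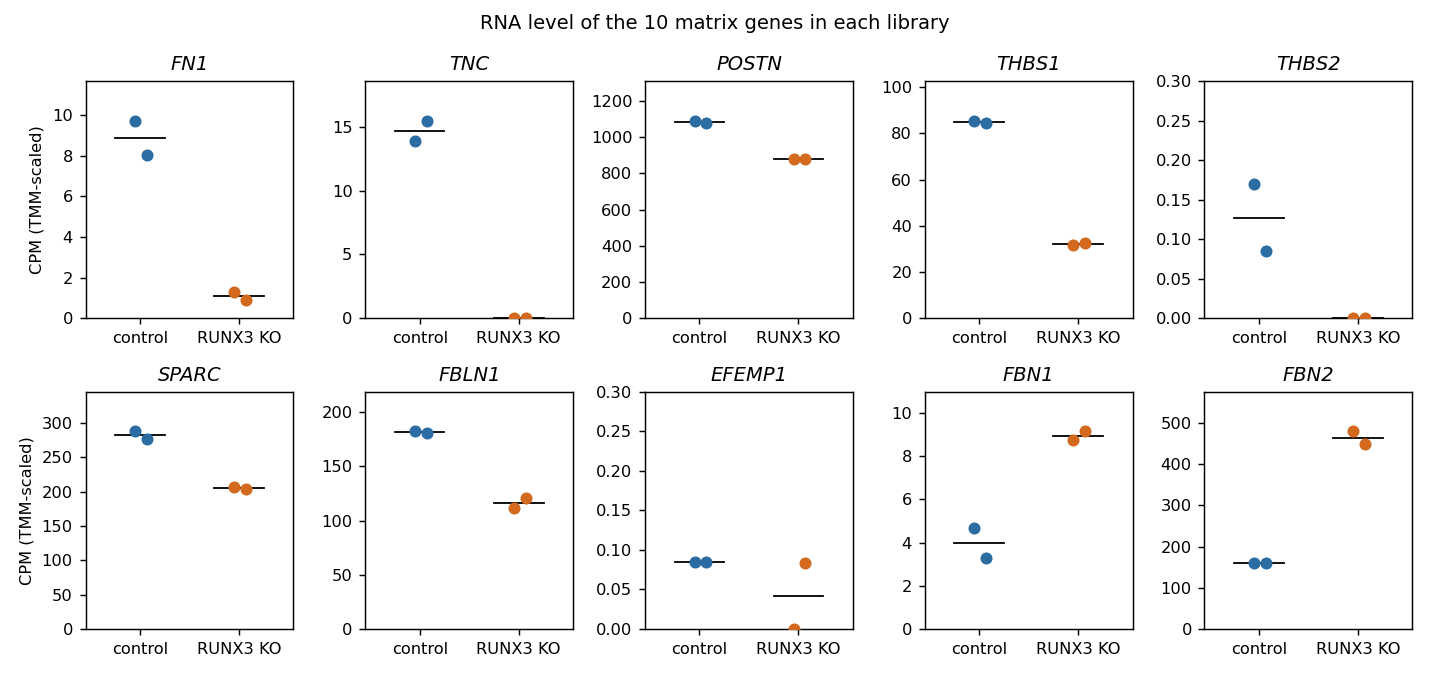
Level of each of the 10 genes in each library, in CPM on a linear axis that starts at 0 (blue, control; orange, RUNX3 KO; bar, mean of 2 libraries). TNC fell from 13.9 and 15.5 CPM to 0, FBN2 rose from 161 and 160 to 480 and 449 CPM, and THBS2 and EFEMP1 lie at the level of 0 to 2 counts.

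The 250 bases upstream of the MANE Select transcript start (GRCh37, the build the authors call hg19) were read for all 10 genes and searched on both strands. The letters TGTGGT and, as a variant, TGCGGT are the core that RUNX proteins bind. The TATA box was searched as TATAAA and the AP-1 site as TGANTCA. TEAD factors were represented by the letters GGAATG, and SP1 by the letters GGGCGG. Shown are the genes that fell most (TNC and FN1), the one that rose most (FBN2), the single one with a RUNX core (SPARC) and the most abundant (POSTN). Each is written 5′ to 3′ in the direction of the gene, with every match to a searched motif, in either orientation, in capitals.
FN1 (chr2:216300792-216301041, minus strand): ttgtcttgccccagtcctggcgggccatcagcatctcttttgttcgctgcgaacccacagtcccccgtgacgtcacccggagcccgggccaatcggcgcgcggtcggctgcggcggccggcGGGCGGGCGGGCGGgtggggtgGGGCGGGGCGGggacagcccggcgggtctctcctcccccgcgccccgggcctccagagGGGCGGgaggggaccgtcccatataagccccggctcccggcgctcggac
TNC (chr9:117880437-117880686, minus strand): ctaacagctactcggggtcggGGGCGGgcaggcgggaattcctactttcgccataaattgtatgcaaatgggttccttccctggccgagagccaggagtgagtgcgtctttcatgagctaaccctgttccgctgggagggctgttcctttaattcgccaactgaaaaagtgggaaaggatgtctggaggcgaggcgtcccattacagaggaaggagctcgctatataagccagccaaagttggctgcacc
FBN2 (chr5:127873939-127874188, minus strand): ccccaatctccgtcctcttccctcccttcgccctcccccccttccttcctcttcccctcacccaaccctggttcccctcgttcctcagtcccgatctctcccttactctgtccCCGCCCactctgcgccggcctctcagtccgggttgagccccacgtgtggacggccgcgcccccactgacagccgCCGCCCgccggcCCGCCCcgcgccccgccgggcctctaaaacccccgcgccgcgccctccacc
SPARC (chr5:151066477-151066726, minus strand): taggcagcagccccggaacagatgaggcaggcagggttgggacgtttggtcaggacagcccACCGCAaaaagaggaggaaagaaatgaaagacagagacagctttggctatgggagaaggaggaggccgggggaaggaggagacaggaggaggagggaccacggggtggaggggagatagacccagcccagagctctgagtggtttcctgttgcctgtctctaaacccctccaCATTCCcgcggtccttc
POSTN (chr13:38172906-38173155, minus strand): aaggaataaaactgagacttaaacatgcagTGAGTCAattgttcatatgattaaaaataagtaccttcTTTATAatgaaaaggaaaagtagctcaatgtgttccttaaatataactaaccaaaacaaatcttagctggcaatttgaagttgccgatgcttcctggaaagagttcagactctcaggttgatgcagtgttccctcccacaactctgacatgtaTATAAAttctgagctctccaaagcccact
A RUNX core was found in 1 of the 10 windows, as TGCGGT on the opposite strand of SPARC from 189 to 184 bases upstream, while 15.4% of the 18921 windows of protein-coding genes hold TGTGGT or TGCGGT. THBS1, which is lower in RUNX3 KO cells, and both fibrillin genes had neither. GGGCGG, held by 60.1% of all windows, was found in 6 of the 10, with 6 partly overlapping matches in FN1 and none in FBN1, THBS2, SPARC or POSTN. TATAAA, held by 9.11% of windows, was found in THBS2 and POSTN. Only these exact letters were searched, so near matches such as tataag in the FN1 and TNC windows were not counted. TGANTCA, in 4.71% of windows, was found only in POSTN among the 10, and GGAATG, in 9.79%, in THBS1, THBS2 and SPARC. G and C made up 36.4% of the POSTN window and 76.4% of the FN1 window, against a median of 63.6% over all windows. These matches describe letters in a short window and do not show binding. RUNX3 binding and distal sites were not analysed here.

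TNC encodes tenascin-C, a hexameric glycoprotein of embryonic and wound matrix that weakens the adhesion of cells to fibronectin. It lies on chromosome 9 from 117781854 to 117880486 (GRCh37, minus strand). TNC counts were 164 and 183 in control and 0 in both RUNX3 KO libraries. A count of 0 allows up to 0.254 and 0.250 CPM in these libraries, taking 3 counts as the floor. Against that floor, the fall from 14.7 ± 1.14 CPM (SD, n = 2) was at least 58.4-fold. The adjusted p of 2.62e-34 (edgeR quasi-likelihood) belongs to the fitted change from the 0 counts, not to this bound. TNC passed the filter on low counts through its control libraries only. None of the 40 tested genes nearest to TNC on the chromosome came near this, and their median log2 fold change was -0.01. The other tenascins gave no comparison, since TNR and TNN had 0 counts in every library and TNXB had 3 to 7.

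FN1 encodes fibronectin, which cells assemble into fibrils through integrin alpha 5 beta 1. The gene lies on chromosome 2 from 216225163 to 216300796 (minus strand). Control cells gave 115 and 95 counts, RUNX3 KO cells 15 and 11. Its mean CPM ± SD over 2 libraries was 8.90 ± 1.20 for control and 1.09 ± 0.252 for RUNX3 KO. This is -3.01 on the log2 scale (SE 0.240, 95% interval -3.49 to -2.54, edgeR quasi-likelihood, adjusted p = 9.22e-20), a fall of 8.08-fold. Fibronectin RNA was already scarce in control cells. Per kb of transcript it stood above 10.2% of the tested genes in control cells and above 1.36% in RUNX3 KO cells. The neighbourhood of FN1 did not shift, with a median log2 fold change of -0.0022 over 40 genes, of which 20 were below 0. TNS1, a focal adhesion protein gene in that stretch, fell by 3.17 on the log2 scale.

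The tested genes outside the lists whose profile over the 4 libraries lay closest to that of FN1, by Euclidean distance of centred log2 CPM, were RIN1 (distance 0.15), WNT4 (0.30) and RERG (0.31). RIN1, a RAS effector, had 149 and 134 counts in control cells and 19 and 14 in RUNX3 KO cells. WNT4, a WNT ligand, had 55 and 54 against 9 and 5. RERG, a small GTPase, had 14 and 10 against 0 and 0. A lower level in RUNX3 KO cells follows from choosing genes by their likeness to FN1. WNT4 and RERG passed the filter through their control libraries only, and the distance of RERG, at 0 counts in RUNX3 KO cells, rests on the prior count of 2.

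THBS1 encodes thrombospondin 1, a trimeric matricellular protein that binds CD47 and CD36 and can activate latent TGF-beta. It lies on chromosome 15 from 39873280 to 39891667 (plus strand). THBS1 had 1010 and 998 counts in control cells and 375 and 392 in RUNX3 KO cells. The RUNX3 KO libraries lay close together and far below the control libraries, at 32.2 ± 0.590 against 85.1 ± 0.694 CPM (mean ± SD of 2 libraries each). The log2 fold change was -1.40 (SE 0.0610, 95% interval -1.52 to -1.28, edgeR quasi-likelihood, adjusted p = 2.11e-36), a fall of 2.64-fold. Its exons share 448 bases with FSIP1 on the other strand, a gene with 16 to 32 counts. THBS1 is in the study's lists of genes near active RUNX3 sites with CDX2 and LHX2 motifs. These lists carry an expression fold change of 1 sign for every gene, from libraries they do not name, so the fall of THBS1 cannot be taken as independent of them. Its surroundings lay on the other side of 0. Of the 40 nearest tested genes 31 had log2 fold changes above 0, with a median of 0.22, and 1 lay below THBS1 (BMF, a BCL2 family gene, at -1.89). THBS2, the paralogue on chromosome 6, had 2 and 1 counts in control cells and 0 in RUNX3 KO cells, at or under the 3-count floor in every library, so no fold change is given.

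SPARC encodes osteonectin, a calcium- and collagen-binding protein. On chromosome 5 from 151040657 to 151066536 (minus strand), it had 3398 and 3268 counts in control cells and 2443 in each RUNX3 KO library. Its level went from 282 ± 7.70 to 205 ± 2.67 CPM (mean ± SD of 2 libraries each), or -0.46 on the log2 scale (SE 0.0325, edgeR quasi-likelihood, adjusted p = 1.15e-22). This is a fall of 1.38-fold, under the 2-fold that the study set for a changed gene. Of its 40 nearest tested genes, with a median of 0.09, 7 were at or below its value, among them PDGFRB, a growth factor receptor (-1.25), and SGCD, a sarcoglycan (-1.86).

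POSTN encodes periostin, a fasciclin-domain protein that binds collagen, fibronectin and tenascin-C. It lies on chromosome 13 from 38136720 to 38172981 (minus strand). It was the most abundant of the 10 genes by far, with 12898 and 12749 counts in control cells and 10376 and 10602 in RUNX3 KO cells. Its mean CPM ± SD over 2 libraries was 1086 ± 8.61 for control and 881 ± 1.95 for RUNX3 KO. Its log2 fold change of -0.30 (SE 0.0225, edgeR quasi-likelihood, adjusted p = 1.94e-21) was the smallest of the 8, a fall of 1.23-fold. Its 40 neighbours had a median of 0.01. TGFBI, the other fasciclin gene listed, had at most 1 count in any library.

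FBLN1 encodes fibulin 1, which binds fibronectin and basement membrane proteins. It lies on chromosome 22 from 45898118 to 45997015 (plus strand). Its counts were 2154 and 2131 in control cells and 1319 and 1458 in RUNX3 KO cells. The level went from 182 ± 1.32 to 117 ± 6.73 CPM (mean ± SD of 2 libraries each), or -0.64 on the log2 scale (SE 0.0396, edgeR quasi-likelihood, adjusted p = 4.74e-26). The neighbouring genes lay almost as low. Among the 40 nearest tested genes, 38 had log2 fold changes below 0, their median was -0.52, and 15 were at or below the value of FBLN1. Over the 287 tested genes of chromosome 22 the median was -0.52 as well. After subtraction of the neighbourhood median, -0.12 was left for FBLN1. The part of this regional shift in the result was not tested. EFEMP1, the gene of fibulin 3 on chromosome 2, had 1 count per control library and 0 or 1 per RUNX3 KO library, so no fold change is given.

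**Figure D2:**
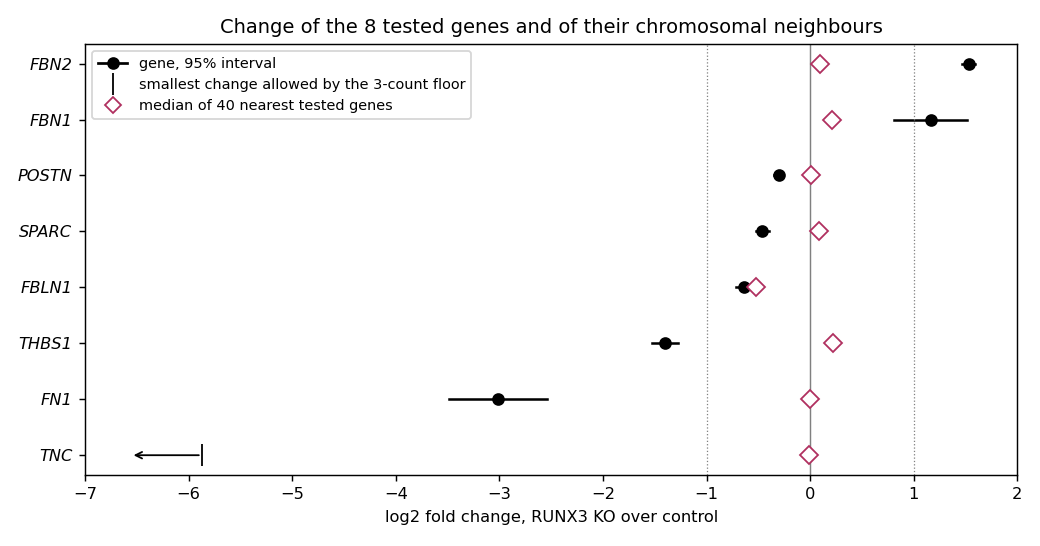
Log2 fold change (RUNX3 KO over control) of the 8 tested genes with 95% intervals (black), and the median of the 40 nearest tested genes on the chromosome (open red diamonds). For TNC the tick marks the smallest fall that the 3-count floor allows and the arrow shows that the fall may be larger. The diamond lies at -0.52 for FBLN1, close to the gene, and at 0.22 for THBS1, on the other side of 0.

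The fibrillins moved in the opposite direction. FBN2 encodes fibrillin 2, known mainly from fetal microfibrils, and lies on chromosome 5 from 127593601 to 127994878 (minus strand). FBN2 had 1901 and 1892 counts in control cells and 5666 and 5392 in RUNX3 KO cells. It rose from 161 ± 0.492 to 464 ± 22.3 CPM (mean ± SD of 2 libraries each), or 1.53 on the log2 scale (SE 0.0324, 95% interval 1.47 to 1.59, edgeR quasi-likelihood, adjusted p = 3.86e-60). This is a rise of 2.89-fold.

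FBN2 did not rise alone. Genes near it in gene order, singled out after their values were seen, were higher too. SLC27A6, a fatty acid transport gene on the other strand whose annotated exons share 56 bases with those of FBN2, rose by 1.64 on the log2 scale, from 98 and 113 to 299 and 367 counts. SLC12A2, an ion cotransporter gene 68.2 kb away, rose by 1.23. Beyond SLC27A6, ISOC1, 436 kb from FBN2, rose by 1.01, and the protease gene ADAMTS19, 801 kb from FBN2, rose by 0.79. The largest adjusted p of these 4 was 4.49e-18 by edgeR's quasi-likelihood test. Beyond SLC12A2, PRRC1 rose by 0.21, although at 703 kb it lies nearer to FBN2 than ADAMTS19 does. MARCH3, 1227 kb away on that side, had a log2 fold change of 0.04 (edgeR quasi-likelihood, adjusted p = 0.899). In gene order, the 4 tested genes around FBN2 from SLC12A2 to ADAMTS19 thus rose with it, by 0.79 to 1.64. The median of all 40 neighbours was 0.10.

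FBN1 encodes fibrillin 1, the main microfibril protein of adult tissue, mutated in Marfan syndrome. It lies on chromosome 15 from 48700510 to 48937918 (minus strand), on the same chromosome as THBS1. It had 55 and 39 counts in control cells and 103 and 110 in RUNX3 KO cells. The level went from 3.98 ± 0.957 to 8.94 ± 0.299 CPM (mean ± SD of 2 libraries each), or 1.16 on the log2 scale (SE 0.177, 95% interval 0.81 to 1.52, edgeR quasi-likelihood, adjusted p = 2.42e-08), or 2.24-fold. The interval reaches below 2-fold, the value without control replicate 2 was 0.94, and without RUNX3 KO replicate 2 the adjusted p was 0.0566, against 7.79e-10 to 0.0432 under the other alternatives tried. Of the 40 genes around it 31 also had log2 fold changes above 0, with a median of 0.21, and 0.95 was left for FBN1 after subtraction. Over the 380 other tested genes of chromosome 15 the median was 0.29. Thus FBN1 and THBS1, in neighbourhoods with nearly the same median, moved in opposite directions. FBN3, the remaining fibrillin gene, rose as well, from 42 and 46 to 104 and 112 counts, or 1.28 on the log2 scale (SE 0.176, edgeR quasi-likelihood, adjusted p = 1.42e-09), while its 40 neighbours had a median of -0.28. All 3 fibrillin genes were therefore higher in RUNX3 KO cells, as were 24.5% of all tested genes.

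**Figure D3:**
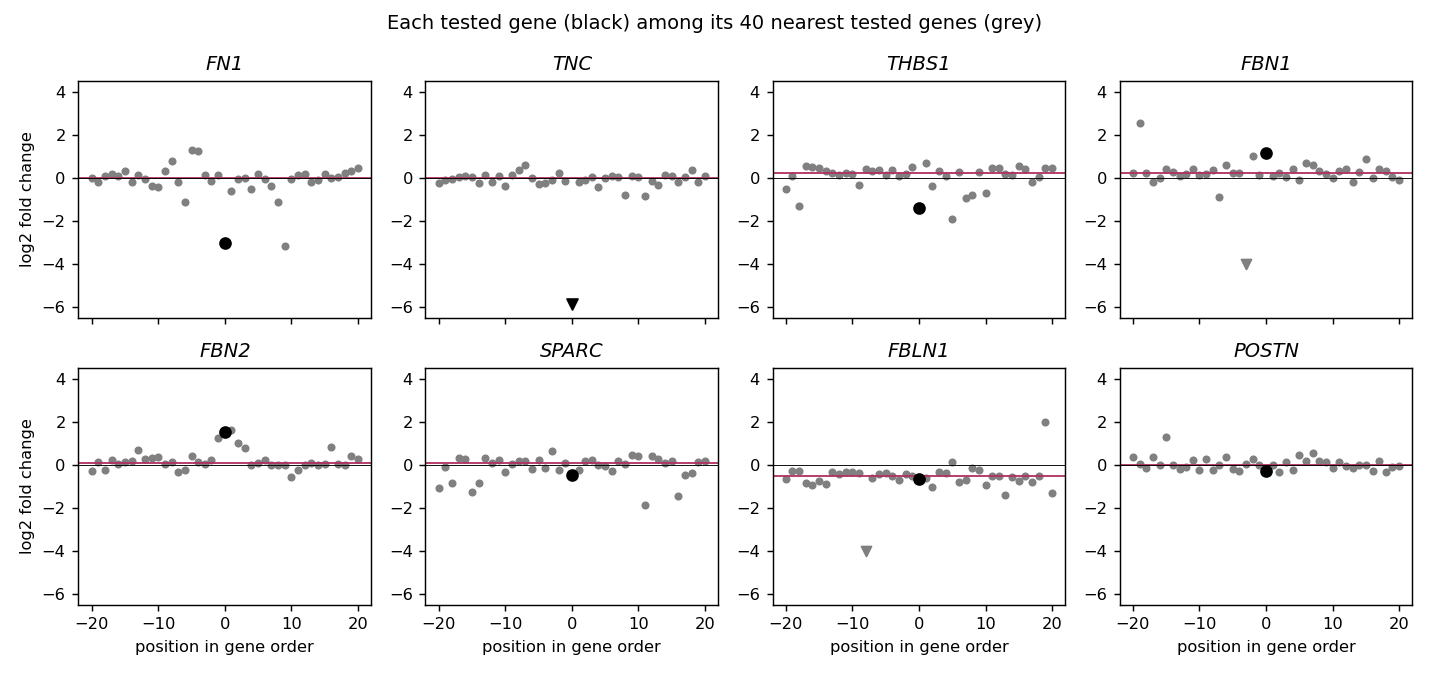
Log2 fold change (vertical axis) of each tested gene of the 10 (black) and of its 40 nearest tested genes (grey) in chromosomal order, with the median of the 40 as a red line. FBN2 sits in a run of raised genes, the genes around FBLN1 lie low as a block (median -0.52), and TNC (triangle, drawn at the smallest fall the floor allows) stands alone. Neighbours beyond 4 in size, of which there are 2, are drawn at -4 as grey triangles.

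Levels can be set beside each other only per transcript length. In CPM per kb of the MANE Select transcript, the order in control cells was POSTN at 329 ± 2.61, SPARC at 81.8 ± 2.23, FBLN1 at 62.5 ± 0.456, FBN2 at 14.7 ± 0.0450, THBS1 at 10.9 ± 0.0891, TNC at 1.73 ± 0.134, FN1 at 1.06 ± 0.142 and FBN1 at 0.343 ± 0.0825 (SD, n = 2 in each). EFEMP1 and THBS2 came last, with 1 or 2 counts each, and cannot be ordered. In RUNX3 KO cells POSTN stayed first at 267 ± 0.591 and SPARC next at 59.4 ± 0.774. FBN2 was then at 42.5 ± 2.04 and FBLN1 at 40.1 ± 2.32, which do not differ beyond their spread. THBS1 followed at 4.13 ± 0.0758, FBN1 at 0.770 ± 0.0258 and FN1 at 0.130 ± 0.0300. FBN1 thus stood below FN1 in control cells and above it in RUNX3 KO cells.

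The summed level of the 10 genes was dominated by POSTN. Per kb of transcript, control cells summed to 502 ± 5.53 and RUNX3 KO cells to 414 ± 0.188 CPM per kb (mean ± SD of 2 libraries each). Without POSTN the sums were 173 ± 2.92 and 147 ± 0.403 CPM per kb, again lower in RUNX3 KO cells. The direction without POSTN depends on the scaling, since in CPM with no correction for length, where the long FBN2 transcript weighs more, the sums were 737 ± 11.3 for control and 828 ± 17.5 for RUNX3 KO. FBN2 made up 2.91% and 2.94% of the summed level per kb in control and 10.6% and 9.92% in RUNX3 KO. As a share of reads, it made up 8.76% and 8.86% in control and 27.9% and 26.4% in RUNX3 KO. The share of reads on FN1 and TNC was under 1% each in every library.

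**Figure D4:**
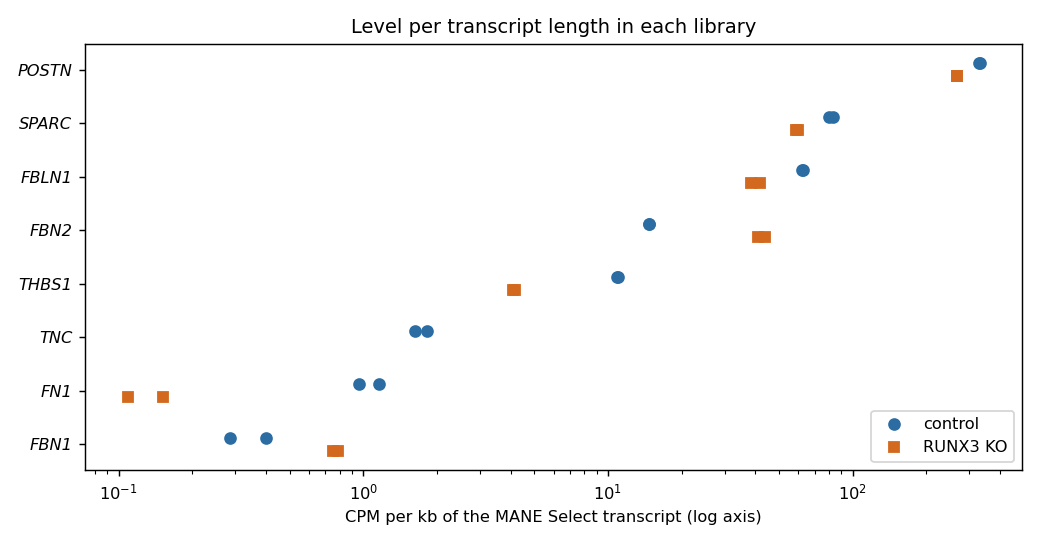
Level per kb of transcript for the 8 tested genes in each library (log axis; blue circles, control; orange squares, RUNX3 KO), ordered by the control level. POSTN leads in every library, FBN2 moves from 14.7 to 42.5 CPM per kb (means), and TNC has no RUNX3 KO point because its count was 0.

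Other genes of the same families did not move as one. Of 39 related matrix genes, 20 were tested, 11 were lower and 5 higher at an adjusted p under 0.05, and 4 did not pass. With the DESeq2 test, and without either RUNX3 KO library, 8 were lower and 4 higher. Their median log2 fold change was -0.14, against -0.0021 over all tested genes. The backgrounds given above (24.4% lower and 24.5% higher) apply here too. At a fold change of at least 2, EMILIN2, NOV and FBLN5 were lower and FBN3 higher, against 3.95% and 2.11% of all tested genes. EMILIN2, an elastin-interface protein, went from 204 and 189 to 38 and 35 counts, or -2.44 on the log2 scale (SE 0.159, edgeR quasi-likelihood, adjusted p = 9.65e-25). NOV, a matricellular CCN protein, went from 521 and 527 to 131 and 115 counts, or -2.10 on the log2 scale (SE 0.0941, edgeR quasi-likelihood, adjusted p = 1.47e-35). FBLN5, the fibulin that joins elastin to microfibrils, went from 468 and 497 to 228 and 258 counts, just past 2-fold, in a neighbourhood with a median of -0.27.

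By family, the microfibril genes other than FBN1 and FBN2 had 5 lower and 1 higher of 8 tested. Over all tested genes 24.4% were lower and 24.5% higher, which stands beside the counts of each family below. The raised one was FBN3, and the lower ones besides EMILIN2 were MFAP4 (-0.64), EMILIN1 (-0.57), LTBP4 (-0.38) and LTBP1 (-0.20). Apart from the 3 fibrillins, no tested microfibril gene passed the test upwards, with LTBP2 at 0.08 and LTBP3 at -0.07 passing in neither direction. ELN, the gene of elastin, had at most 1 count in any library. Thrombospondins other than THBS1 and THBS2 had THBS3 (-0.41) and COMP (-0.52) lower and THBS4 (0.88) higher, all under 2-fold. The 40 neighbours of COMP had a median of -0.28. In the CCN family, CYR61 (0.32) and CTGF (0.80), both textbook YAP targets, were higher while NOV was lower. In the SPARC family SPOCK2 (-0.65, edgeR quasi-likelihood, adjusted p = 0.0480) and FSTL1 (-0.08) were lower, and SMOC2 was at -0.01 without passing. Among fibulins other than FBLN1, HMCN1 (0.73) was higher, FBLN5 lower and FBLN7 (0.46) did not pass. SPP1, the gene of osteopontin, had 0 counts in every library.

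Receptors that bind these proteins were counted the same way. Of 14 listed genes 11 were tested, 4 were lower, 2 higher and 5 did not pass, with a median log2 fold change of -0.07. Over all tested genes 24.4% were lower and 24.5% higher, and nothing particular to the receptors is read from their counts. ITGA5, the fibronectin-specific integrin subunit, was lower by 0.36 on the log2 scale, and its partner ITGB1 was at -0.03 without passing (95% interval -0.09 to 0.02). ITGB5 (-0.33), CD47 (-0.32) and the endocytic receptor LRP1 (-0.69) were lower, and ITGA4 (0.39) was higher. CD36, a thrombospondin receptor and fatty acid transporter, had 1 and 6 counts in control cells and 59 and 42 in RUNX3 KO cells, or 3.79 on the log2 scale (SE 0.396, edgeR quasi-likelihood, adjusted p = 5.00e-14). It passed the filter through its RUNX3 KO libraries only, and its control level is too low for a precise fold change.

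**Figure D5:**
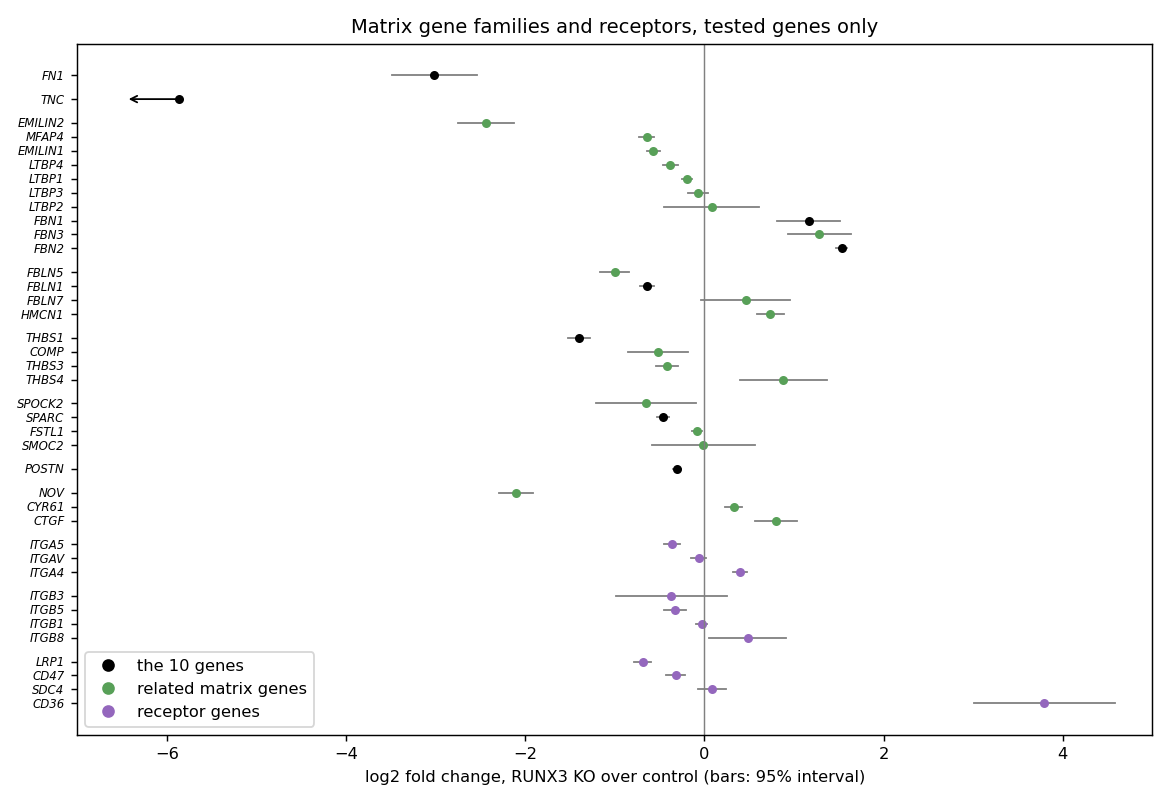
Log2 fold change (RUNX3 KO over control, 95% interval) of every tested gene of the matrix families and receptors, grouped by family (black, the genes examined; green, related matrix genes; purple, receptors). FBN1, FBN2 and FBN3 all lie above 1, TNC is drawn at the smallest fall its floor allows, and the receptors lie between -0.69 and 0.48 except CD36 at 3.79.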

How the data were processed

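Per the labels, the libraries were made with a stranded poly(A) kit. The authors deposited raw counts of reads per gene symbol for each library, without normalization, aligned to hg19. The paper's methods name STAR and featureCounts on GENCODE genes, whereas the submitters' processing notes name HISAT2 2.1.0 and HTSeq, and the deposited count tables close with 5 rows in the form of htseq-count. These rows took 25.9% to 28.1% of counts and were left out. Whether counting used strand is not given in the sources used here, so reads in the bases that FBN2 shares with SLC27A6, THBS1 with FSIP1 and 1 antisense gene, THBS2 with 1 antisense gene, TNC with DELEC1 and SPARC with CLMAT3 cannot be assigned with certainty.

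Counts were fitted on the whole table in R 4.3.3 with edgeR 4.0.16 (filterByExpr with a minimum count of 10, TMM, quasi-likelihood test, Benjamini-Hochberg adjustment over 12967 genes), without a replicate block. With 2 libraries per group, the smallest exact permutation p (two-sided) is 0.333. SE is the size of the log2 fold change over the square root of F. The 95% intervals and the floor of 3 counts cover the spread of these libraries and counting error only. Positions and transcript lengths came from GENCODE v44 on GRCh37, the same assembly as hg19, matched by symbol or synonym (93.2% of tested genes). Neighbourhoods are the 20 nearest tested genes on each side. The fit was tested on simulated counts. The members and lists were chosen with earlier results of these data known. Named were the 10 genes, RUNX3, the related and receptor genes called at 2-fold and the 3 profiles closest to FN1, and other genes after their values were seen. Alternatives were other scalings and filters, DESeq2 1.42.0, limma-voom (limma 3.58.1), a replicate block and each library left out.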

Additional observations from a re-analysis of the deposited data

How the results depend on the processing

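None of the 8 tested genes, nor RUNX3, changed direction under any scaling, test, filter, replicate block or left-out library in which it was fitted. THBS2 and EFEMP1 were not evaluated. With DESeq2 size factors, library size alone, DESeq2, limma-voom, no filter and the replicate block, the 6 lower and 2 higher calls among the 10 genes were all kept in number. With at least 10 counts in every library TNC could not be tested, and the number of higher receptor genes went from 2 to 1, since CD36 was not tested. Leaving out a library moved the number of higher members between 1 and 2, and at 2-fold also between 1 and 2. FBN1 lost its call without RUNX3 KO replicate 2 (edgeR quasi-likelihood, adjusted p = 0.0566, against 7.79e-10 to 0.0432 otherwise, log2 fold change 1.13), and without control replicate 2 it was under 2-fold at 0.94. RUNX3 ranged from -0.86 to -0.55 with a library left out and lost its call without RUNX3 KO replicate 2 (-0.55, adjusted p = 0.0649 by the same test, against 4.09e-12 to 0.0304 under the other alternatives). Among the related matrix genes, 11 lower and 5 higher became 8 and 4 with DESeq2 and without either RUNX3 KO library, and leaving out a library gave 8 to 12 lower and 4 to 5 higher. Lower receptor genes went from 4 to 3 without RUNX3 KO replicate 1. With 3 libraries the lone library is assumed to vary like the other condition.

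The replicate block changed no call among the 10 genes. Same-numbered libraries did not deviate together (r = 0.026 across 12967 genes, which are not independent). Since libraries of a condition differed by close to sampling noise, this cannot show whether same-numbered libraries were paired. Under the block the log2 fold change of FBN1 was 1.17, and 6 members were lower and 2 higher. Subtraction of the neighbourhood median, chosen after seeing the data, moved FBLN1 to -0.12, FBN1 to 0.95, FBN2 to 1.43, THBS1 to -1.62 and SPARC to -0.55. At these depths FN1 and FBN1 are imprecise, and THBS2 and EFEMP1 were not detectable above the floor.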
